A study of Mus musculus with 17 samples.

Results

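The genes described here encode proteins that hepatocytes, the main cells of the liver, secrete into plasma. The 35 genes are a list by name: 8 carriers (Alb, Afp, Ttr, Trf, Rbp4, Hpx, Hp and Ambp), 6 apolipoproteins (Apoa1, Apoa2, Apoa4, Apob, Apoh and Apom), 11 genes of clotting and fibrinolysis (Fga, Fgb, Fgg, F2, F7, F10, F13b, Plg, Cpb2, Kng1 and Vtn), 9 protease inhibitors and fetuins (Serpina1d, Serpinc1, Serpinf2, Ahsg, Fetub, Itih1, Itih2, Itih3 and Itih4) and 1 complement gene, C3. Of these, 32 had a probe set annotated to that gene alone, among 22180 such genes on the array. Trf lay only on a probe set shared with Srprb, and Cpb2 and C3 were not matched in the annotation used here, so these 3 genes have no value below. Each of the 32 genes had 1 such probe set.

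Whole mouse embryos at E12.5 (embryonic day) gave RNA that was measured on 17 Affymetrix 2.0 ST arrays, 1 array per RNA sample: 4 CH homozygotes, 2 CH heterozygotes, 3 Klf3 H275R homozygotes, 4 Klf3 H275R heterozygotes and 4 wild type (WT) embryos. H275R replaces 1 amino acid in a DNA-binding finger of the Krüppel-like transcription factor KLF3 and arose by chemical mutagenesis. The CH line has a gene trap inserted in the first intron of Klf3, was derived from a single embryonic stem cell clone and has a mixed strain background. The labels give neither litter nor sex nor a finer stage for any embryo. The p-values reflect the scatter among these arrays alone, in which differences between embryos and technical differences cannot be told apart. Line and genotype cannot be told apart where CH arrays are set against the others. Values are log2 levels after robust multiarray average (RMA) normalization, and a probe set passed a comparison with an adjusted p under 0.1 over all 39137 probe sets (limma). As a check of the CH homozygote labels, Klf3 was at 5.27, 5.62, 5.73 and 6.13 in these arrays. It was at 9.64 and 9.09 in CH heterozygotes, between 9.33 and 9.70 in the 7 H275R arrays and between 9.48 and 9.80 in WT. These other groups overlapped, so Klf3 could not check their labels. Y-linked Kdm5d was at 9.54 in H275R homozygote 1 and 9.70 in WT 2. It was at 9.52 in CH homozygote 3 and 9.58 in CH heterozygote 1. In every other array, all H275R heterozygotes among them, it was between 3.79 and 4.46. Arrays that differ in this signal come from different embryos.

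As background, hepatoblasts bud from the foregut endoderm, and from mid-gestation the fetal liver makes most plasma proteins while it also houses the forming red cells. Albumin and transferrin-like carriers move small molecules and metals, apolipoproteins carry lipids, and the clotting factors circulate as inactive precursors, and serpins such as antithrombin inhibit proteases once these are active. Liver transcription of these genes is known to rest on HNF1, HNF4, FOXA and C/EBP factors. Other tissues of the embryo share some members: the yolk sac endoderm makes Afp and apolipoproteins, and the choroid plexus makes Ttr. In RNA of whole embryos, fewer hepatocytes and less RNA of a gene per hepatocyte cannot be told apart.

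The start regions of these genes were examined because members moved together across arrays. RefSeq promoters (250 bases before to 50 after the start, GRCm38.p6) were at hand for 30 of the 35 genes, 33 promoters in all, since 3 genes had a pair. The C/EBP motif TTGCNNAA was found on either strand in 14 of the 33 (42.4%), against 10.8% of all 32851 promoters in the table. The HNF1 half-site GTTAAT was found in 9 (27.3%, against 7.1%), the FOXA motif TGTTTAC in 4 (12.1%, against 3.65%) and TATAAA in 9 (27.3%, against 13.6%). CACCC, the core that Krüppel-like factors bind, was found in 25 (75.8%, against 57.5%). The longer Krüppel-like motif CCACACCC (3.56% of all promoters) and the HNF4 motif CAAAGTCCA (0.475%) had 0 matches. CACCC can lie within CCACACCC. These matches describe letters only, and binding was not measured. The 200 bases from 150 before to 50 after the start are shown for 6 genes described below, with every match to these motifs on either strand in capitals (GGGTG is CACCC read on the other strand): Alb at chr5:90460720-90460919 on the plus strand, Afp at chr5:90490564-90490763 on the plus strand, Apoa1 at chr9:46228480-46228679 on the plus strand, Apob at chr12:7977527-7977726 on the plus strand, Hpx at chr7:105600067-105600266 on the minus strand and Serpina1d at chr12:103773584-103773783 on the minus strand.
Alb: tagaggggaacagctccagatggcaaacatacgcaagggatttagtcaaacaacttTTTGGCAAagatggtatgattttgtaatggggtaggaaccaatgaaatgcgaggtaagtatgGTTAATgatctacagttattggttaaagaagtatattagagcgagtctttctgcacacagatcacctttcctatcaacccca
Afp: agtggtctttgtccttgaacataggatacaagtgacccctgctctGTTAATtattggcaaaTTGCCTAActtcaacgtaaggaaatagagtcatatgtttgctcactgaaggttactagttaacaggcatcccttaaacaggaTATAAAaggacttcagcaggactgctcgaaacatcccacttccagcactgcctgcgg
Apoa1: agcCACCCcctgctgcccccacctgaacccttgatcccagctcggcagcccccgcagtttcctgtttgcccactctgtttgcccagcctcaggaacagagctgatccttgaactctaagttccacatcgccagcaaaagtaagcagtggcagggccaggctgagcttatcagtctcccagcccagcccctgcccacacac
Apob: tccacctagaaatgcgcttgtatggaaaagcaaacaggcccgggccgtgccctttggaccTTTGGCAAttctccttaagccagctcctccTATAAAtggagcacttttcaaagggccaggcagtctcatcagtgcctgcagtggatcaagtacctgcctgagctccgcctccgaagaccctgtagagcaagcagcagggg
Hpx: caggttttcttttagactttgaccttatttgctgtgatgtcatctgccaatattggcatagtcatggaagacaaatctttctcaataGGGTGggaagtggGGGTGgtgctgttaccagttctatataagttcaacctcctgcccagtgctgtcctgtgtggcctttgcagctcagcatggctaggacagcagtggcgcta
Serpina1d: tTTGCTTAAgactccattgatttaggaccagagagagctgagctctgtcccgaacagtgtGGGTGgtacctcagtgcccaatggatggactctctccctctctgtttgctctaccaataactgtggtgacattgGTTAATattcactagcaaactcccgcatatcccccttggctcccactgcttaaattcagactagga
Alb, Afp and Serpina1d each show a GTTAAT match, Alb, Afp, Apob and Serpina1d a C/EBP match, and Apoa1, Hpx and Serpina1d a CACCC match in these stretches. Afp and Apob also show TATAAA.

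Across the 17 arrays the plasma protein genes were among the more variable genes of the embryo, and most of that variation lay within the CH line. The median spread (SD) of the 32 genes within a group was 0.637 in CH homozygotes and 0.964 in CH heterozygotes, and 0.207, 0.178 and 0.207 in H275R homozygotes, H275R heterozygotes and WT. Over all probe sets with 1 gene symbol the median SD was 0.137, 0.118, 0.101, 0.105 and 0.114 in the same 5 groups. The mean log2 level of the 32 genes was 7.59, 8.66, 7.55 and 8.55 in CH homozygotes 1 to 4, 7.41 and 8.66 in CH heterozygotes, 7.74, 7.49 and 7.50 in H275R homozygotes, 7.92, 8.04, 7.80 and 7.75 in H275R heterozygotes and 7.96, 7.84, 8.10 and 7.65 in WT. CH homozygotes 2 and 4 and CH heterozygote 2 were the highest arrays of all, and the other 3 CH arrays lay below every WT array. Of the 32 genes, 31 were above their own 17-array median in CH homozygote 2, 28 in CH homozygote 4 and 31 in CH heterozygote 2, where 43.4%, 44.2% and 45.2% of all probe sets with 1 symbol were. By contrast 7, 3 and 3 genes were above it in CH homozygote 1, CH homozygote 3 and CH heterozygote 1, and 1 of 32 in WT 4.

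**Figure D1:**
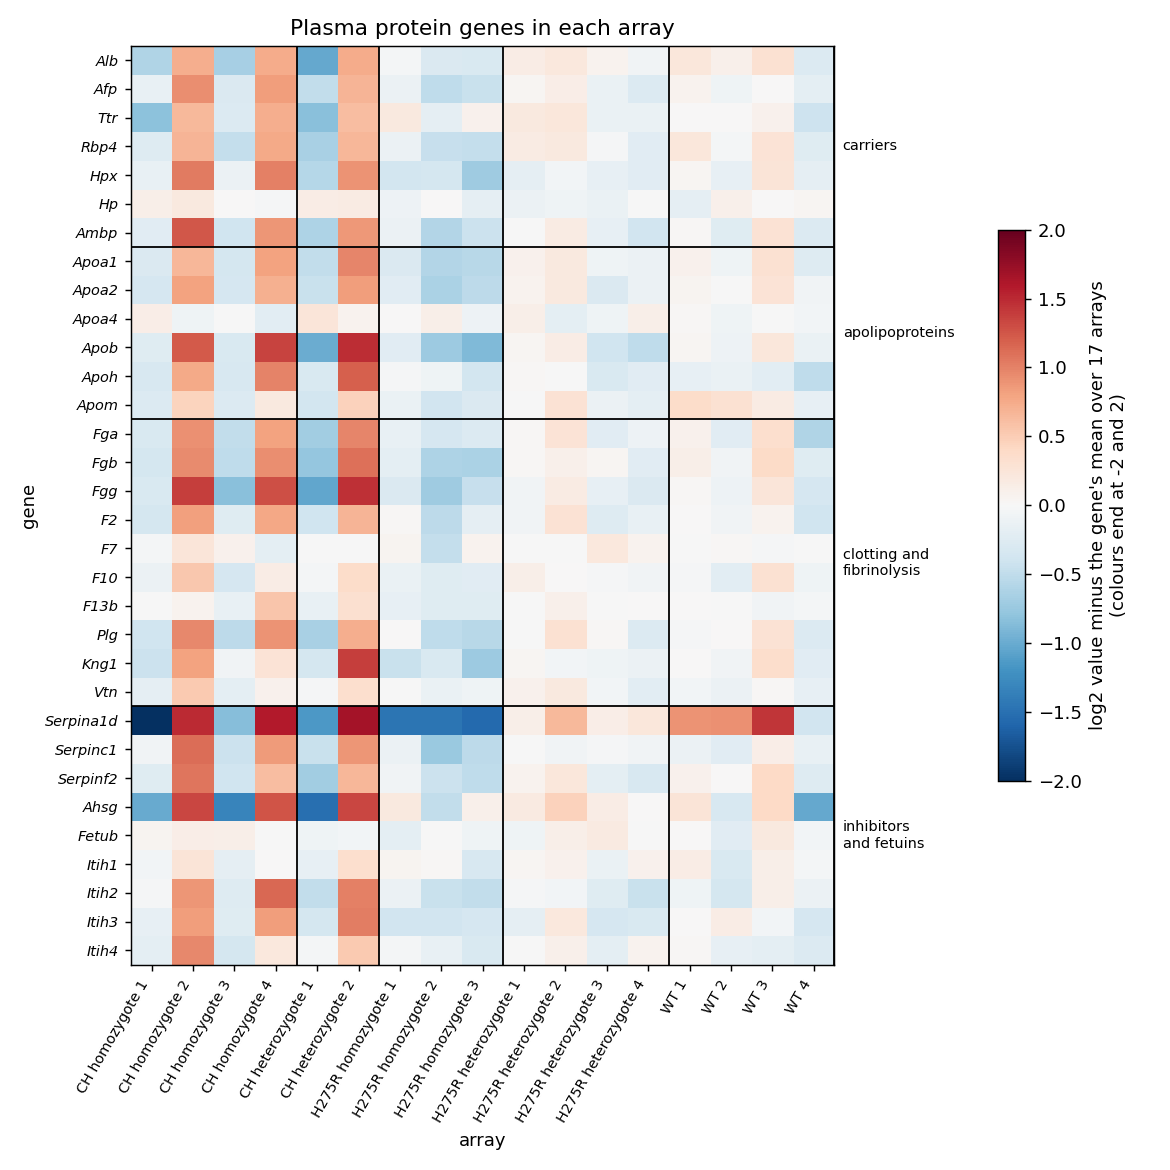
Each row is 1 of the 32 measured plasma protein genes, grouped by role, each column is 1 array, and the colour is the log2 value minus the gene's mean over the 17 arrays. CH homozygotes 2 and 4 and CH heterozygote 2 are red for most genes, and Hp, Apoa4 and Fetub stay pale in every array.

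In the CH arrays and WT 4, cartilage genes moved with the plasma protein genes. The mean of 17 cartilage matrix genes and regulators (Col2a1, Acan, Sox9 and others), whose tissue forms around this stage, was 7.76, 8.74, 7.71 and 8.60 in CH homozygotes, 7.67 and 8.49 in CH heterozygotes, 7.97 to 8.12 in H275R homozygotes, 8.07 to 8.17 in H275R heterozygotes and 8.16, 8.13, 8.05 and 7.66 in WT. The same 3 CH arrays were thus the highest for cartilage genes, and CH homozygotes 1 and 3, CH heterozygote 1 and WT 4 the lowest. The mean of 17 erythroid genes was 8.57, 9.49, 8.97 and 9.41 in CH homozygotes, 9.15 and 9.59 in CH heterozygotes, 8.78, 8.50 and 8.38 in H275R homozygotes, 8.92 to 9.01 in H275R heterozygotes and 9.11, 8.97, 9.39 and 9.50 in WT. WT 4 and CH heterozygote 1 were therefore low for plasma protein and cartilage genes but not for erythroid genes. The part of embryo stage or of liver size in these differences was not tested.

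The other lists of cell types that express single members varied less. Over the 17 arrays the mean of 5 yolk sac genes lay between 6.38 and 6.55, of 6 choroid plexus genes between 7.07 and 7.31, of 6 gut epithelium genes between 5.64 and 5.98 and of 10 macrophage genes between 7.43 and 7.87, while the mean of the 32 plasma protein genes lay between 7.41 and 8.66. The gut and macrophage means were also highest in CH homozygotes 2 and 4 and CH heterozygote 2. Genes that act inside hepatocytes moved alongside the secreted ones in these 3 CH arrays. WT 4 was the lowest WT array for the plasma protein genes but not for these genes (6.84, above 6.80 in WT 2). The mean of 26 regulators and enzymes that stay within hepatocytes (Hnf4a, Cebpa, Cps1 and others) was 6.83, 7.14, 6.78 and 7.10 in CH homozygotes, 6.78 and 7.14 in CH heterozygotes, 6.82, 6.74 and 6.68 in H275R homozygotes, 6.77 to 6.91 in H275R heterozygotes and 6.80 to 6.90 in WT, with the same 3 CH arrays highest and over a narrower range than the plasma protein genes.

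**Figure D2:**
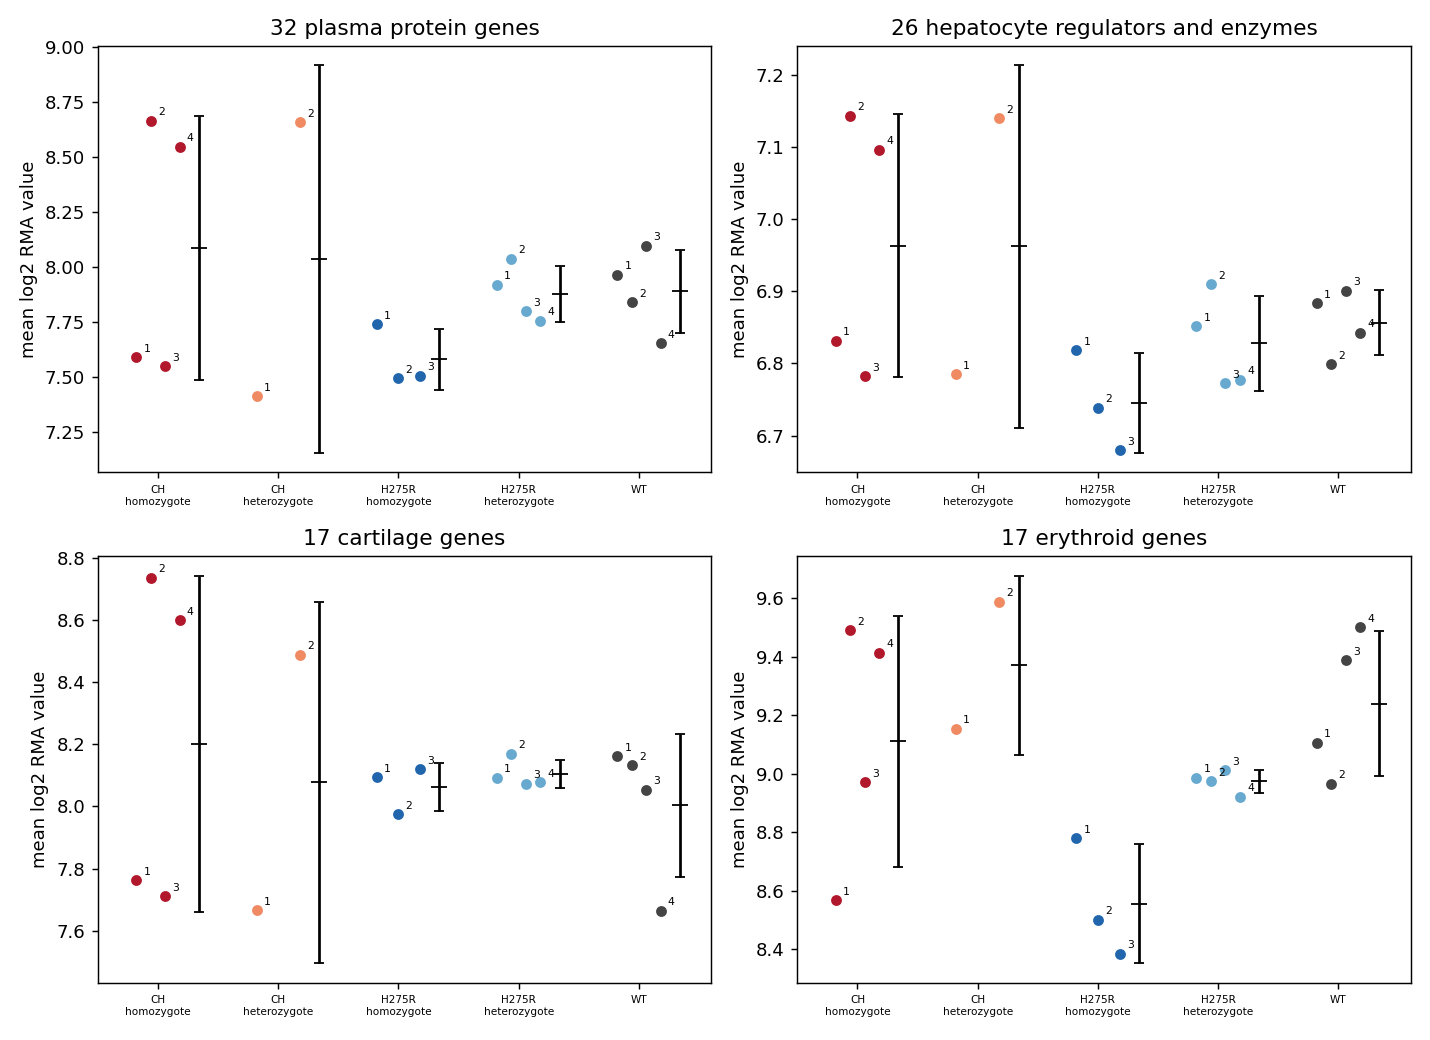
Points are single arrays, numbered by replicate, at the mean log2 RMA value of the genes in each list, and the bars beside them are the group mean ± SD (n = 4, 2, 3, 4 and 4 from left to right). The plasma protein and cartilage panels share their 3 highest arrays, and in the erythroid panel the 3 H275R homozygotes lie below every WT array.

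Among the carriers, Alb, the main plasma protein, was at 11.87, 13.21, 11.82 and 13.22 in CH homozygotes and at 11.45 and 13.22 in CH heterozygotes. It was at 12.44, 12.18 and 12.17 in H275R homozygotes, at 12.63, 12.68, 12.55 and 12.40 in H275R heterozygotes and at 12.70, 12.58, 12.78 and 12.20 in WT. The CH arrays lay on both sides of all others. Afp, the fetal counterpart of albumin and its neighbour on the chromosome, spanned 10.87 to 12.31 over the arrays. Ttr, which carries thyroid hormone and binds the retinol carrier Rbp4, spanned 10.39 to 11.95, Rbp4 spanned 8.81 to 10.22, and Ambp, the precursor of alpha-1-microglobulin and bikunin, spanned 8.25 to 10.10. Hp, which binds free haemoglobin, was the exception. It ranged by only 0.37 over the 17 arrays, below the median range of 0.53 over all probe sets with 1 symbol, whereas Hpx, which binds free haem, ranged by 1.75.

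Among the apolipoproteins, Apob, the structural protein of the large lipoproteins, varied most. It was at 8.51, 9.98, 8.45 and 10.10 in CH homozygotes, at 7.76 and 10.23 in CH heterozygotes, at 8.53, 8.03 and 7.86 in H275R homozygotes, at 8.79, 8.90, 8.35 and 8.24 in H275R heterozygotes and at 8.79, 8.65, 8.97 and 8.62 in WT. The H275R homozygotes were below every WT array, and the CH arrays spanned both ends of the range. Apoa1 and Apoa2, the main proteins of high-density lipoprotein, ranged by 1.57 and 1.47, Apoh, a phospholipid-binding protein, by 1.69 and Apom, a carrier of sphingosine phosphate, by 0.84. Apoa4 lies near Apoa1 with Apoc3 between them, yet it ranged by only 0.45 and was the 1 member that was higher in CH heterozygote 1 (6.38) than in CH heterozygote 2 (6.21).

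The fibrinogen genes Fga, Fgb and Fgg lie side by side and their products form 1 clot protein. Fgg was at 7.95, 9.63, 7.41 and 9.54 in CH homozygotes, at 7.22 and 9.72 in CH heterozygotes, at 7.97, 7.54 and 7.79 in H275R homozygotes, at 8.18, 8.42, 8.09 and 7.97 in H275R heterozygotes and at 8.28, 8.15, 8.50 and 7.92 in WT. Its range of 2.49 over the arrays was wider than that of Fgb (1.87) and Fga (1.66). Plg, the precursor of the clot-dissolving enzyme plasmin, ranged by 1.61, F2, prothrombin, by 1.34 and Kng1, the precursor of bradykinin, by 2.12. F10 (0.87), F13b (0.79), Vtn (0.75) and F7 (0.71) ranged less. F7 and F10 are neighbours that both encode clotting factors. F10 was highest in CH homozygote 2 (8.03) and CH heterozygote 2 (7.86), where F7 was at 7.32 and 7.08, beside 7.06 to 7.11 in WT.

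Among the inhibitors and fetuins, Serpina1d, a member of the alpha-1-antitrypsin family, had the widest range of the 32 genes, 3.89. It was at 3.02, 6.75, 4.40 and 6.85 in CH homozygotes, at 4.11 and 6.92 in CH heterozygotes, at 3.79, 3.80 and 3.71 in H275R homozygotes, at 5.37, 5.91, 5.39 and 5.48 in H275R heterozygotes and at 6.16, 6.17, 6.69 and 4.87 in WT. The mouse carries several near-identical Serpina1 copies, so which copy gave this signal is uncertain, and the same holds for Kng1 and its neighbour Kng2. Ahsg, fetuin-A, an inhibitor of calcification, was at 7.91, 10.25, 7.59 and 10.17 in CH homozygotes, at 7.41 and 10.25 in CH heterozygotes, at 9.11, 8.42 and 9.02 in H275R homozygotes, at 9.09, 9.38, 9.07 and 8.93 in H275R heterozygotes and at 9.17, 8.59, 9.31 and 7.90 in WT. CH homozygotes 1 and 3, CH heterozygote 1 and WT 4 held its 4 lowest values. Fetub, its direct neighbour and an inhibitor of proteases, ranged by only 0.42 against 2.84 for Ahsg. Of the neighbouring heavy chains of the inter-alpha-trypsin inhibitors, Itih3 ranged by 1.41, Itih4 by 1.32 and Itih1 by 0.66.

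**Figure D3:**
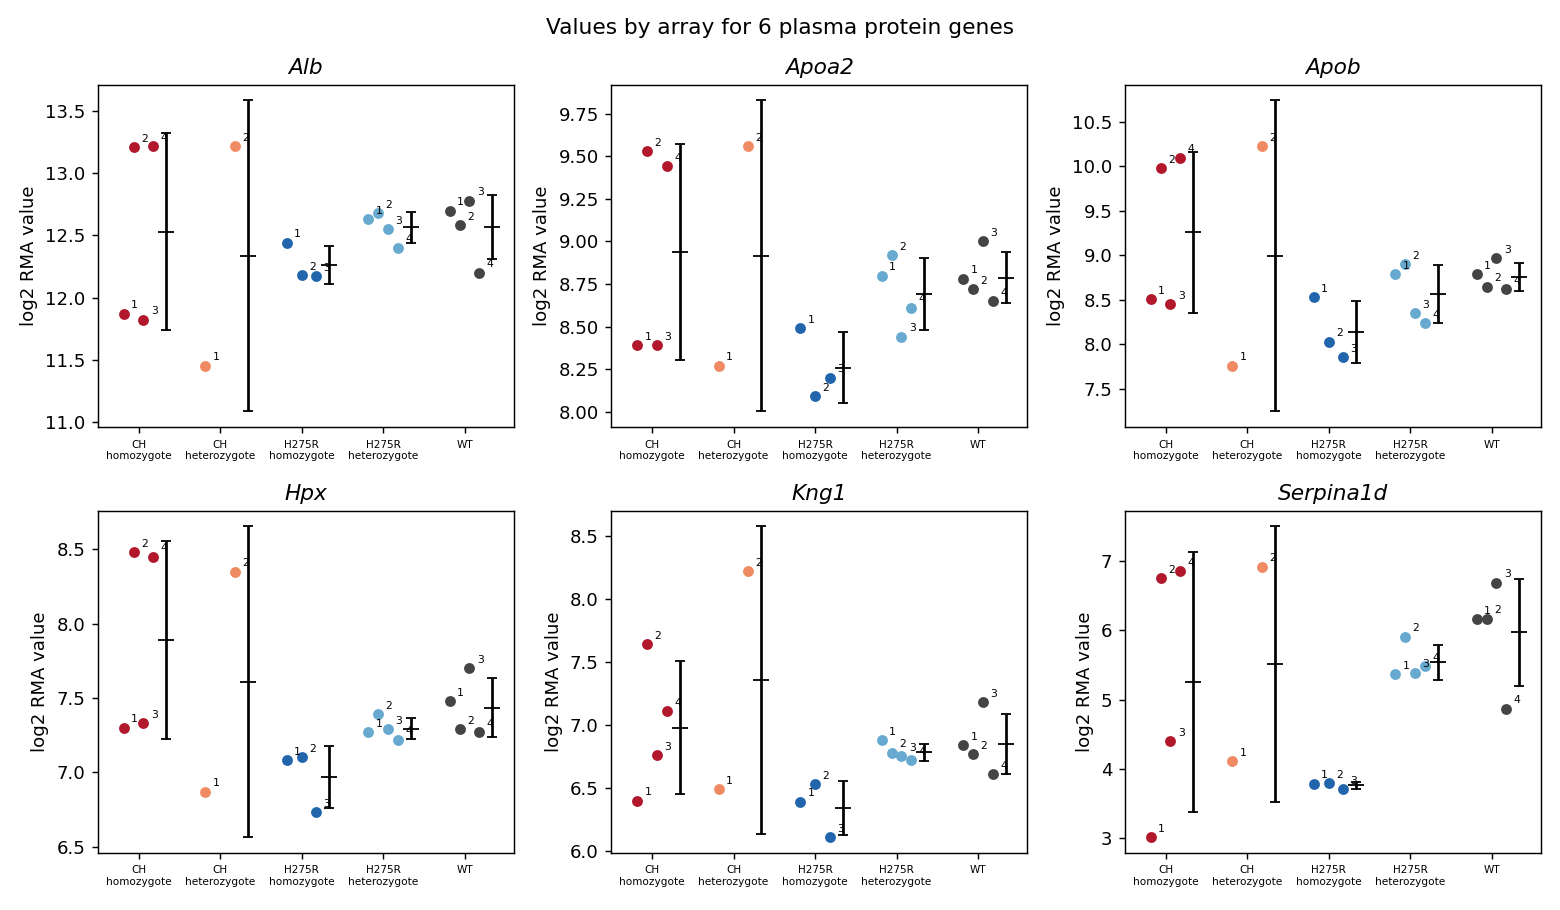
Points are the log2 RMA values of single arrays, numbered by replicate, for 6 genes in the 5 groups, and the bars beside them are the group mean ± SD (n = 4, 2, 3, 4 and 4 from left to right). Serpina1d in the 3 H275R homozygotes sits between 3.71 and 3.80, below all H275R heterozygotes and WT, and in each panel the CH arrays reach further apart than any other group.

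H275R homozygotes were compared with WT to ask what the point mutation does on both alleles. None of the 32 genes passed, and 5 of all 39137 probe sets did (0.0128%, limma). At an unadjusted p under 0.05 there were 3 members, all lower, and 1982 of all probe sets. The members lay lower as a group: 27 of 32 differences were below 0 and their median was -0.30, where 47.5% of all probe sets with 1 symbol lay below 0 and their median was 0.01. In 7 of 32 (21.9%), every homozygote was below every WT array, which held for 3.16% of all probe sets. These were Hpx, Apoa1, Apoa2, Apob, F13b, Kng1 and Serpina1d. The members share cells and regulators and are not independent, so this share is a description without a test.

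The smallest p was that of Serpina1d, which averaged 3.77 ± 0.05 in H275R homozygotes and 5.97 ± 0.78 in WT (SD, n = 3 and 4), a difference of -2.20 ± 0.72 (SE) with an adjusted p of 0.860. The 3 homozygotes lay within 0.09 of each other, at a level low for these arrays, whose medians were 6.68 or higher. RMA values carry no detection call, so whether this probe set was above background in the homozygotes is not known. Nor is it known for F13b, at 4.30 to 4.37 in homozygotes and 4.47 to 4.55 in WT. Apom differed by -0.43 ± 0.18 (7.05 ± 0.13 against 7.48 ± 0.24, adjusted p 0.963), and H275R homozygote 1 (7.18) overlapped WT 4 (7.14). Kng1, at 6.39, 6.53 and 6.11 in homozygotes and 6.84, 6.77, 7.18 and 6.61 in WT, differed by -0.51 ± 0.22 (adjusted p 0.963). Of the lipid carriers, Apoa2 was at 8.49, 8.09 and 8.20 in homozygotes and 8.78, 8.72, 9.0 and 8.65 in WT, a difference of -0.53 with an interval from -1.07 to 0.02. Apob (-0.62) and Apoa1 (-0.49) also did not overlap, while Apoa4 (0.04) and Apoh (0.10) lay above 0. By role, 6 of 7 carriers, 4 of 6 apolipoproteins, 9 of 10 clotting genes and 8 of 9 inhibitors and fetuins were below 0.

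The CH homozygotes enter the shared estimate of the spread. In a fit of the H275R and WT arrays alone, chosen once the spread of the CH arrays was known, the differences were the same, the SE of Serpina1d was 0.333 and its adjusted p 0.128, and 15 members and 2295 of all probe sets had an unadjusted p under 0.05. With the cartilage mean as a covariate, Serpina1d passed, at -2.39 ± 0.31 (adjusted p 0.0845), as 1 of 10 probe sets. Over all alternatives its adjusted p lay between 0.0845 and nearly 1. The 17 cartilage genes themselves did not lean downward, with 11 above and 6 below 0 and a median of 0.03. Their mean was 7.97 to 8.12 in H275R homozygotes and 8.16, 8.13, 8.05 and 7.66 in WT 1 to 4. The low WT 4 thus bears on this lean. Erythroid genes moved with the plasma protein genes in this comparison, though not in every one below. All 17 lay below 0 with a median of -0.73, and 1 passed (Xk, a blood group antigen carrier, -0.77, adjusted p 0.0756). The list's mean was 8.38 to 8.78 in H275R homozygotes and 8.97 to 9.50 in WT. The part of the fetal liver's red cell compartment in the plasma protein result was not tested.

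H275R homozygotes were next set against H275R heterozygotes, with the same homozygote arrays. No member and no other probe set passed (0% of 39137), and 1 member and 1243 probe sets had an unadjusted p under 0.05. All members but Apoa4 (0.02) lay below 0, with a median of -0.27. In 7 of 32 (21.9%) every homozygote was below every heterozygote, against 2.5% of all probe sets: Hpx, Apoa1, F10, F13b, Kng1, Serpina1d and Serpinc1. Serpina1d averaged 3.77 ± 0.05 in homozygotes and 5.54 ± 0.25 in heterozygotes, a difference of -1.77 ± 0.72 (adjusted p above 0.99), and in a fit of these 7 arrays alone it was the 1 probe set that passed (SE 0.134, adjusted p 0.0557). In the fit of the H275R and WT arrays alone none passed, and 13 members and 1410 probe sets had an unadjusted p under 0.05. Apoa1, at 8.46, 8.16 and 8.19 in homozygotes and 8.83, 8.95, 8.67 and 8.64 in heterozygotes, differed by -0.50 ± 0.25, and Kng1 by -0.44 ± 0.22. Serpinc1, antithrombin, was at 6.96, 6.34 and 6.55 in homozygotes and within 7.0 to 7.07 in heterozygotes. All 17 erythroid genes were again below 0, with a median of -0.47.

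H275R heterozygotes did not differ from WT beyond the spread between arrays. No member and no probe set passed (0%), and 0 members and 1514 probe sets had an unadjusted p under 0.05 (limma). The members split evenly, 16 above and 16 below 0, with a median of 0.00, and none separated the groups. The smallest p-values belonged to Hp (6.64 ± 0.06 in heterozygotes and 6.72 ± 0.12 in WT, difference -0.08), Apom (-0.17) and Fetub (0.07), each with an adjusted p above 0.99. Alb differed by 0.00 ± 0.28, with an SE of 0.125 in the fit of the H275R and WT arrays alone. The extremes were Serpina1d (-0.43) and Ahsg (0.38), for both of which WT 4 was the lowest WT array. Of the 17 erythroid genes 16 lay below 0, with a median of -0.27, while the members split evenly.

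CH homozygotes were compared with WT to ask what the gene trap does on both alleles. None of the 32 members passed, against 0.0588% of all probe sets (23), and 1 member and 3503 probe sets had an unadjusted p under 0.05. The members leaned upward, 28 above and 4 below 0 with a median of 0.20, but no member separated the groups. Erythroid genes leaned the other way, with 13 of 17 below 0 and a median of -0.09. The largest difference of a member was also downward, in Serpina1d (-0.72, with an interval from -2.15 to 0.71). CH homozygotes 1 and 3 were below every WT array for it, and CH homozygotes 2 and 4 were above every WT array. Itih2, a heavy chain of the inter-alpha-trypsin inhibitors, was at 8.93, 9.83, 8.69 and 10.10 in CH homozygotes and 8.87, 8.60, 9.07 and 8.83 in WT, a difference of 0.54 ± 0.25 (adjusted p 0.555). Apoh was at 5.90, 6.98, 5.90 and 7.22 in CH homozygotes and 6.05, 6.09, 6.01 and 5.72 in WT (0.53 ± 0.25, adjusted p 0.561). Hpx averaged 7.89 ± 0.66 and 7.43 ± 0.20 (0.46 ± 0.24, adjusted p 0.606). In Itih2, Apoh and Hpx, CH homozygotes 2 and 4 were above every WT array and CH homozygotes 1 and 3 were within the WT span. With the cartilage mean as a covariate, the median difference was 0.03, with 18 members above 0 and 14 below. With no covariate, the median was 0.39, 0.02, 0.40 and 0.09 without CH homozygotes 1 to 4 in turn, and 0.11 without WT 4. Without CH homozygote 4 Itih2 was at 0.30 and Apoh at 0.29, and Hpx was at 0.26 without CH homozygote 2 and 0.27 without CH homozygote 4.

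The widest gap lay between the homozygotes of the CH line and of the H275R line. No member passed, against 0.164% of all probe sets, yet 31 of 32 members were higher in CH homozygotes, with a median of 0.50 (all probe sets with 1 symbol, 0.00), and 12 members had an unadjusted p under 0.05, all higher, beside 4919 probe sets. The median was 0.33 without CH homozygote 2, 0.32 without CH homozygote 4 and 0.72 without CH homozygote 3. Hpx averaged 7.89 ± 0.66 in CH homozygotes and 6.97 ± 0.21 in H275R homozygotes (n = 4 and 3), a difference of 0.92 ± 0.26, or 1.89-fold, with an adjusted p of 0.192. Apob differed by 1.12 ± 0.36, or 2.18-fold (adjusted p 0.246), and Serpinc1 by 0.83 ± 0.28 (adjusted p 0.264). In 4 of 32, every CH homozygote was above every H275R homozygote, against 5.7% of all probe sets: Hpx, F13b, Fetub and Itih3. Itih3 was at 6.86, 7.87, 6.79 and 7.86 in CH homozygotes and 6.65, 6.64 and 6.69 in H275R homozygotes. Serpina1d differed by 1.49, with an interval from -0.06 to 3.03, and CH homozygote 1 (3.02) was below and the other 3 were above every H275R homozygote.

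This comparison turned on its processing. With the cartilage mean as a covariate 7 members passed, all higher: Afp (0.54), Hpx (0.77), Apoa1 (0.54), Apoa2 (0.53), Apob (0.92), Serpinc1 (0.67) and Itih3 (0.53), with adjusted p-values from 0.0452 to 0.0892. In that fit 669 probe sets passed in all. Without CH homozygote 1, 3 members passed, all higher (Hpx, Kng1 and Serpina1d), among 547 probe sets. In a fit of these 7 arrays alone none passed. Beside the members, all 17 erythroid genes were above 0 (median 0.48), and Fah, an enzyme of tyrosine breakdown in hepatocytes, rose, at 7.56 ± 0.24 in CH homozygotes and 6.35 ± 0.14 in H275R homozygotes (1.21, adjusted p 0.00296).

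Between CH homozygotes and H275R heterozygotes no member passed, where 0.951% of all probe sets did, and 2 members (Itih2 and Hpx, both higher) and 5714 probe sets had an unadjusted p under 0.05. The members were 26 above and 6 below 0, with a median of 0.19, and none separated the groups. Erythroid genes were 12 above and 5 below 0, with a median of 0.13. Itih2 differed by 0.64 ± 0.25 (adjusted p 0.268), Hpx by 0.60 ± 0.24 (adjusted p 0.273) and Apob by 0.69 ± 0.33 (adjusted p 0.359). With the cartilage mean as a covariate Hpx (0.49) and Itih3 (0.36) passed, among 1786 probe sets. With no covariate, the median was 0.41, 0.02, 0.37 and 0.05 without CH homozygotes 1 to 4 in turn. Without CH homozygote 4 Itih2 was at 0.40 and Apob at 0.41, and without CH homozygote 2 Apob was at 0.45.

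Within the CH line, homozygotes and heterozygotes did not separate. No member passed, against 0.00511% of all probe sets, and 0 members and 2131 probe sets had an unadjusted p under 0.05 (limma). The median of the 32 differences was 0.09, with 20 above and 12 below 0. All 17 erythroid genes lay below 0, with a median of -0.27. Fetub was the 1 member (3.12%, against 5.36% of all probe sets) with every homozygote above both heterozygotes, at 5.15, 5.22, 5.20 and 5.09 against 5.01 and 5.03 (0.15 ± 0.11, adjusted p 0.962). Apoa4 differed by -0.20 ± 0.11 (adjusted p 0.936), and Kng1 by -0.38 ± 0.36 (adjusted p 0.970). The 2 heterozygotes stood at opposite ends: without CH heterozygote 1 the median difference was -0.49, and without CH heterozygote 2 it was 0.75. It was 0.28, -0.13, 0.25 and -0.08 without CH homozygotes 1 to 4 in turn. Of the 32 genes, 13 had their highest value of all arrays in CH heterozygote 2 and 13 in CH homozygote 2, and 11 had their lowest in CH heterozygote 1 and 9 in H275R homozygote 2.

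**Figure D4:**
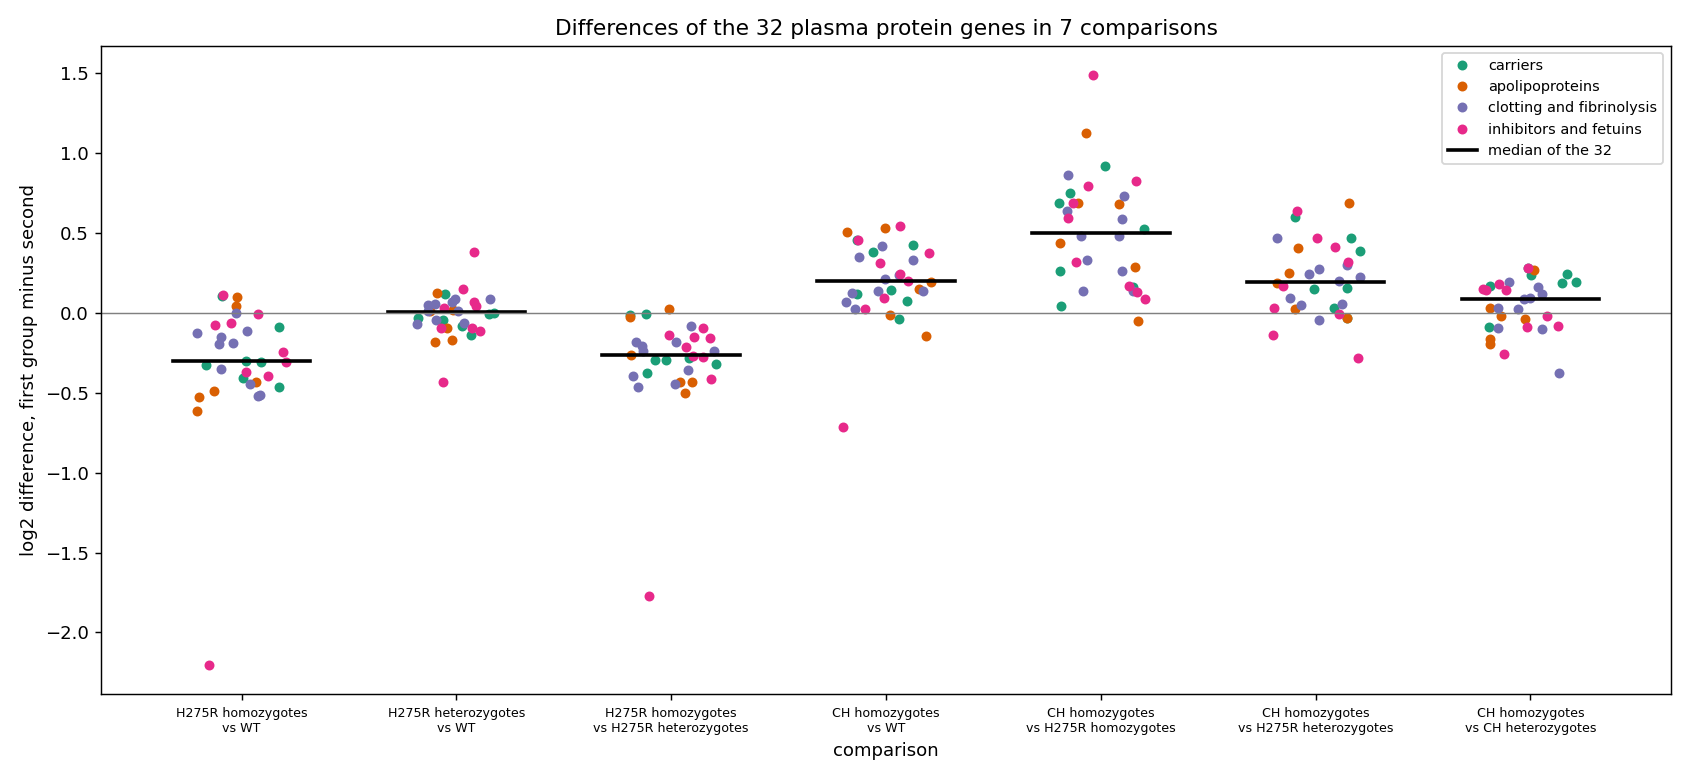
Each point is 1 of the 32 genes, coloured by role, at its log2 difference in 1 of the 7 comparisons (first group minus second), and the black line is the median. The medians lie at -0.30, 0.00, -0.27, 0.20, 0.50, 0.19 and 0.09 from left to right. Serpina1d is the lowest point of every column except the fifth and the last.

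Of 43 further plasma protein genes measured (of 50 listed), 30 lay below 0 in H275R homozygotes against WT, with a median of -0.15, and none passed. Apoc1, an inhibitor of lipoprotein uptake, was lower in each H275R homozygote than in any WT array (-0.28, SD 0.03 and 0.04), and so were Serpind1, heparin cofactor II (-0.50), and Serping1, the C1 inhibitor (-0.23). These genes were picked from the 43 for their lack of overlap, which held for 3.16% of all probe sets. They are a description without a test. Igfbp1, which binds insulin-like growth factors, went the other way (7.62 ± 0.33 in H275R homozygotes and 6.94 ± 0.31 in WT, 0.67, adjusted p 0.968). In CH homozygotes against H275R homozygotes 35 of the 43 were above 0 (median 0.25) and none passed. Against H275R heterozygotes 31 were above 0 and 1 passed, Serping1 (8.98 ± 0.18 in CH homozygotes and 8.57 ± 0.10 in heterozygotes, 0.41, adjusted p 0.0799). Of 26 measured genes of hepatocyte regulation and metabolism (of 30 listed), 19 lay below 0 in H275R homozygotes against WT (median -0.11) and none passed, though Fah was at 6.35 ± 0.14 and 7.16 ± 0.08 (-0.81, adjusted p 0.143) without overlap. Fah also rose in CH homozygotes against H275R heterozygotes (0.79, adjusted p 0.0316). Hnf4a, a central regulator of hepatocyte genes, was at 7.32 ± 0.09 in H275R homozygotes and 7.48 ± 0.04 in H275R heterozygotes (-0.16), again without overlap and without passing. In that comparison 18 of the 26 lay below 0 and 8 above, with a median of -0.09. Fah and Hnf4a were picked from the 26 and are a description without a test. Every H275R homozygote lay below every array of the other group for 3.16% of all probe sets against WT and 2.5% against H275R heterozygotes.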

How the data were processed

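Total RNA of whole embryos was hybridized to 17 arrays, 1 per sample. The authors deposited 1 table of log2 values after RMA, which removes background, equalizes the distributions of the arrays and combines the probes of a probe set. Partek and RMA are named in the submitters' processing notes. Whether all arrays were normalized together is not given in the sources used here. The deposited log2 values ran from 2.24 to 13.7 over 39137 probe sets, with array medians of 6.68 to 6.78 and correlations between arrays of 0.981 to 0.994. Depth does not apply, and the number of arrays limits the precision. Columns were matched to samples by name, and 0 columns stayed without a sample.

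Gene names came from the annotation of the platform, which gave 1 symbol to 23521 probe sets. Members and gene lists were chosen with earlier results of these data known. Of a gene's probe sets with 1 symbol, the one with the highest mean was used. Every probe set was fitted with limma 3.58.1 in R 4.3.3 (lmFit, eBayes), with 1 mean per genotype over 15 arrays, or over all 17 where CH heterozygotes entered, with no filter and no covariate. The Benjamini-Hochberg adjustment covered all probe sets, and the threshold was an adjusted p under 0.1. The fit was tested on simulated data with 1 spread per probe set for all groups. That test does not cover the wider spread of the CH arrays. Full statistics are given per comparison for the 3 members with the smallest p, since fewer than 3 passed. Other members are named for their roles or for groups without overlap. Intervals are 95%. Alternatives were a replicate block, array weights, an intensity trend, all 17 arrays, a fit of the 2 groups alone, the methods' t-test, quantile normalization again, median centring, filters on symbols and level, a stricter threshold, the cartilage mean or Kdm5d as covariate, and each array left out in turn. Motifs were counted in RefSeq promoters, whose table gave the coordinates (GRCm38.p6). Neighbouring genes came from the RefSeq gene table of that assembly.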

Additional observations from a re-analysis of the deposited data

Results flagged for a closer look

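F13b, the carrier subunit of clotting factor XIII, held the 1 value that stood apart from its own group. In H275R heterozygote 2 it was at 4.63, against 4.53 to 4.54 in the other 3 heterozygotes, and the gap took up 0.905 of the group's range, above Dixon's critical value for 4 arrays. The check ran on the 32 genes and on their mean in 3 groups of 4 arrays, 99 checks in all, and chance flags about 1 in 20. Groups of 2 and 3 arrays were not checked.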

How the results depend on the processing

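Of the members passing, the count of 0 became 1 in H275R homozygotes against WT, 7 in CH homozygotes against H275R homozygotes and 2 in CH homozygotes against H275R heterozygotes with the cartilage mean as a covariate, and 1 in H275R homozygotes against H275R heterozygotes with only these 2 groups fitted. In those fits 10, 669, 1786 and 1 of all probe sets passed. Leaving out 1 array gave 0 to 3 members in CH homozygotes against H275R homozygotes (3 without CH homozygote 1, among 547 probe sets) and moved the median difference in CH homozygotes against CH heterozygotes between -0.49 and 0.75. In the other comparisons, leaving out 1 array left the count at 0. The cause of these changes was not tested. Leaving out 1 array gave Kng1 values from -1.24 to 0.49 in CH homozygotes against CH heterozygotes, with the sign turned without CH heterozygote 2, and Fetub values from -3.42e-04 to 0.14 in H275R heterozygotes against WT, turned without WT 2. Same-numbered arrays of compared groups deviated together (correlation over 0.1) in 8 of 23 pairs. Every pair did so only in CH homozygotes against CH heterozygotes (0.43 and 0.27), with fewer than 3 pairs, and no shared litter or batch is given, so the numbers were not taken to pair the arrays. With the replicate number as a block 0 members passed in each comparison, the same as without it. The median differences have no threshold to keep. Of the 7 comparisons none had a member passing with Kdm5d, a Y-linked gene, as a covariate. The alternative of averaging all probe sets of a gene gave the same values, since each member had 1. Members below the median level had no value where only probe sets above it were kept, which left 24 of 32. The number of arrays limits the precision.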
